A study of Mus musculus with 2 samples.

Results

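The miR-200 family of microRNAs (miRNAs) consists of 5 genes in the mouse, and all 5 were measured here in fetal liver: Mir200b, Mir200a and Mir429, which lie together on chromosome 4, and Mir200c and Mir141, which lie together on chromosome 6. They were chosen by name, as the rows of the deposited tables whose Ensembl identifiers carry these names in the GENCODE mouse annotation, and are 5 of 1973 gene rows, 708 of which had a count in either library. The samples were liver tissue of B6NCrl mouse embryos at 16.5 days of gestation, and each of the 2 biological replicates was a pool from embryos of mixed sex. The pool of replicate 2 came from 41 embryos; for replicate 1 the labels state a pool but no number. Both pools are of the same tissue, strain and age, so there is 1 group and no contrast of conditions.

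MiRNAs are cut as short double-stranded pieces from hairpin-shaped transcripts, and 1 strand then guides a silencing complex to messenger RNAs. The choice of target depends mainly on the seed, bases 2 to 8 from the 5′ end of the mature miRNA. The miR-200 family is a hallmark of epithelial cells: it represses the transcription factors Zeb1 and Zeb2, which switch off E-cadherin, and these factors in turn repress the miR-200 genes. In liver the family is known mainly from the epithelium of the bile ducts. Counts of liver tissue do not show which cells the reads came from, and in bulk tissue fewer cells of a type and less RNA per cell cannot be told apart.

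The mature 3′ arms are shown because they divide the family into 2 groups that cut across the clusters. All 5 genes matched an entry of the RefSeq miRNA table (build GRCm38.p6). Each arm is written 5′ to 3′ with its seed in capitals. The first 3 arms share the seed AAUACUG, which pairs with CAGUAUU in a target, and the other 2 share AACACUG, which pairs with CAGUGUU.
mmu-miR-429-3p (chromosome 4): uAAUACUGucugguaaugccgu
mmu-miR-200b-3p (chromosome 4): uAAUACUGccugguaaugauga
mmu-miR-200c-3p (chromosome 6): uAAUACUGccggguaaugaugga
mmu-miR-200a-3p (chromosome 4): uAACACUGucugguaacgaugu
mmu-miR-141-3p (chromosome 6): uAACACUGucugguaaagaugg

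The seeds of the groups differ at 1 base, which is U4C from miR-429-3p to miR-200a-3p with positions counted from 1 at the 5′ end. Among the 1738 mature mouse miRNAs of the table, these 3 and 2 arms alone carried the respective seeds. Each group has a near-identical pair with 1 gene in each cluster. From miR-200b-3p to miR-200c-3p the differences over 22 bases were U11G and A22G, and from miR-200a-3p to miR-141-3p they were C17A and U22G. MiR-429-3p stood further from the others of its seed group, with 4 differences from miR-200b-3p and 5 from miR-200c-3p.

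The deposited counts are per hairpin gene, so reads of the 5′ and the 3′ arm are summed. The hairpins of the most abundant gene of each cluster show what 1 count can come from, with the 5′ and then the 3′ mature arm in capitals.
Mir429 hairpin: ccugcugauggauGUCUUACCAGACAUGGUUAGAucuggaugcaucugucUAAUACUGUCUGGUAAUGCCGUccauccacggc
Mir200c hairpin: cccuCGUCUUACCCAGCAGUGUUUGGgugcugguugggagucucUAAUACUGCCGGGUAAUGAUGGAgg

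None of the 18-base words of the 5 hairpins occurred in another hairpin of the 1005 miRNA genes in that table. The longest run of bases that a 3′ arm shared with any other mature miRNA was 16, between miR-200a-3p and miR-141-3p. Reads that map to several places are left out of the gene counts and made up 28.1% and 28.2% of the tallied reads, but full-length reads of these 5 genes are not identical to those of another gene of that table. Counts on the opposite strand were 0 or 1 for every member in each library.

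In mm10, Mir200b (ENSMUSG00000065549.2) lies on chromosome 4 at 156055681 to 156055750, Mir200a (ENSMUSG00000065400.1) at 156054896 to 156054985 and Mir429 (ENSMUSG00000065427.1) at 156053905 to 156053987, all on the minus strand. The 3 hairpins span 1846 bases. All 3 fall in an intron of Ttll10, a protein-coding gene on the same strand, and also within the noncoding gene Gm13648, where Mir429 overlaps an exon and the other 2 an intron. On chromosome 6, Mir200c (ENSMUSG00000065462.2) spans 124718322 to 124718390 and Mir141 (ENSMUSG00000065474.1) 124717914 to 124717985, also on the minus strand and within 477 bases. Both sit in an intron of the noncoding gene Gm15884, between Phb2, 964 bases from Mir141, and Ptpn6, 2317 bases from Mir200c. Mir141 also overlaps an exon of Gm29008, a same-strand gene model of unverified type.

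All 5 members were detected in both pools, and Mir429 was the most abundant by far. Levels are given in CPM, the sense-strand count of a gene scaled so that all gene rows of a library sum to 1000000. The sense-strand total before scaling was 5930074 in replicate 1 and 5102289 in replicate 2. Mir429 had 17731 counts in replicate 1 and 21726 in replicate 2, which is 2990 and 4258 CPM and a mean of 3624 ± 897 CPM (SD, n = 2). It ranked 56th of the 1973 genes in replicate 1 and 43rd in replicate 2.

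Mir200b, the gene at the 5′ end of the chromosome 4 cluster, had 4394 and 5318 counts, or 741 and 1042 CPM (mean 892 ± 213 CPM). Mir200c, the chromosome 6 gene with a near-identical 3′ arm, had 1922 and 3532 counts, or 324 and 692 CPM (mean 508 ± 260 CPM). Mir200a had 967 and 1231 counts, or 163 and 241 CPM (mean 202 ± 55.3 CPM). These 3 genes kept the same order in both libraries, and the ranges of neighbours in that order did not overlap.

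Mir141, the lowest member, had 286 and 725 counts, or 48.2 and 142 CPM (mean 95.2 ± 66.4 CPM). Its highest value lay below the lowest value of Mir200a, 163 CPM, by a small margin beside its own spread. Mir141 ranked 209th in replicate 1 and 166th in replicate 2. It alone of the 5 missed 100 CPM in a library. Taking 0 counts to allow up to 3, an undetected gene could reach 0.506 CPM (replicate 1) or 0.588 CPM (replicate 2), and every member was far above that limit.

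**Figure D1:**
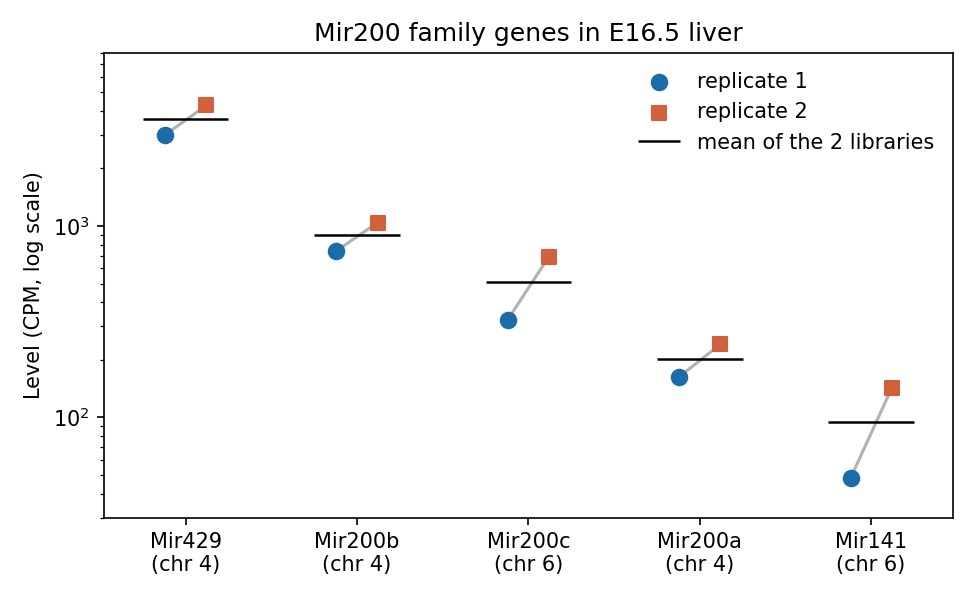
Level of each Mir200 family gene in CPM on a log axis, with replicate 1 as a circle, replicate 2 as a square and the mean of the 2 libraries as a bar; genes are ordered by mean level. Mir429 sits at 2990 and 4258 CPM, and replicate 2 is the higher library for each gene.

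Summed over the family, the level was 4266 and 6376 CPM in the 2 libraries (mean 5321 ± 1492 CPM). As a share of all sense-strand counts this came to 0.4266% in replicate 1, with an exact 95% interval (Clopper-Pearson) from 0.4214% to 0.4319%, and to 0.6376% in replicate 2 (0.6307% to 0.6445%). These intervals cover counting error within 1 library only. Amplified copies of a molecule are not independent counts, so the intervals may be too narrow even for that error. The libraries differed by far more than these intervals, so the spread between libraries and not the depth sets the precision of the family's level. Each pool gave 1 library, so differences of the pools and of their preparation cannot be told apart. Mir429 alone amounted to 1.40% and 1.98% of the count of Mir122, the most abundant gene of the libraries and the main miRNA of hepatocytes.

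Markers of the labelled tissue were present throughout. Of the 5 hepatocyte genes listed all were tested, and their summed level was 219895 and 222039 CPM in the 2 libraries. The erythroid list summed to 24071 and 27152 CPM, the leukocyte list to 17989 and 18736 CPM, and the mesenchymal list to 16177 and 18247 CPM. The endothelial gene Mir126a was at 45470 and 48545 CPM. The miR-200 family was thus lower than each of these groups in both libraries.

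The chromosome 4 cluster held 91.27% of the family's counts in replicate 1 (interval 90.92% to 91.62%) and 86.91% in replicate 2 (86.54% to 87.28%). Mir429 made up most of this, with 70.08% of the family in replicate 1 and 66.78% in replicate 2. Mir200b held 17.37% and 16.35%, and Mir200a 3.822% and 3.784%. On chromosome 6, Mir200c held 7.597% and 10.86% and Mir141 1.130% and 2.229%. The share of the chromosome 6 cluster was therefore 8.727% in replicate 1 (8.382% to 9.082%) and 13.09% in replicate 2 (12.72% to 13.46%).

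**Figure D2:**
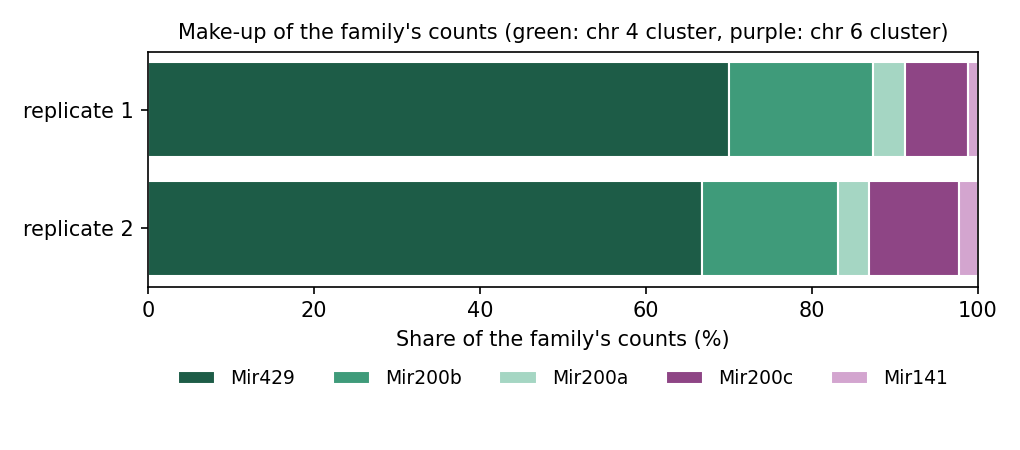
Share of the family's counts held by each gene, in percent, for replicate 1 (top) and replicate 2 (bottom); green marks the chromosome 4 cluster and purple the chromosome 6 cluster. Mir429 holds 70.08% and 66.78%, and the purple part is wider in replicate 2.

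On chromosome 4 the levels did not follow the order of the hairpins. The order from the 5′ end is Mir200b, Mir200a and Mir429, with hairpin starts 765 and 1763 bases downstream of the first. The middle hairpin was the lowest and the last the highest in both libraries. Mir429 exceeded Mir200b by 4.04-fold in replicate 1 (counting interval 3.90 to 4.17) and by 4.09-fold in replicate 2 (3.96 to 4.21). It exceeded Mir200a by 18.3-fold (17.2 to 19.6) and 17.6-fold (16.7 to 18.7). Within this cluster the intervals of the 2 libraries overlapped for each fold, although the levels themselves differed.

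On chromosome 6, Mir200c is the first hairpin and the higher in both libraries, and Mir141 starts 405 bases downstream. Mir200c exceeded Mir141 by 6.72-fold in replicate 1 (5.93 to 7.64) and by 4.87-fold in replicate 2 (4.50 to 5.28). These intervals did not overlap, so the make-up of this cluster differed between the libraries by more than the counting error in the intervals. Folds between genes are of counts, and a preference of the library preparation for some sequences would be shared by both libraries and would not show in their agreement.

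**Figure D3:**
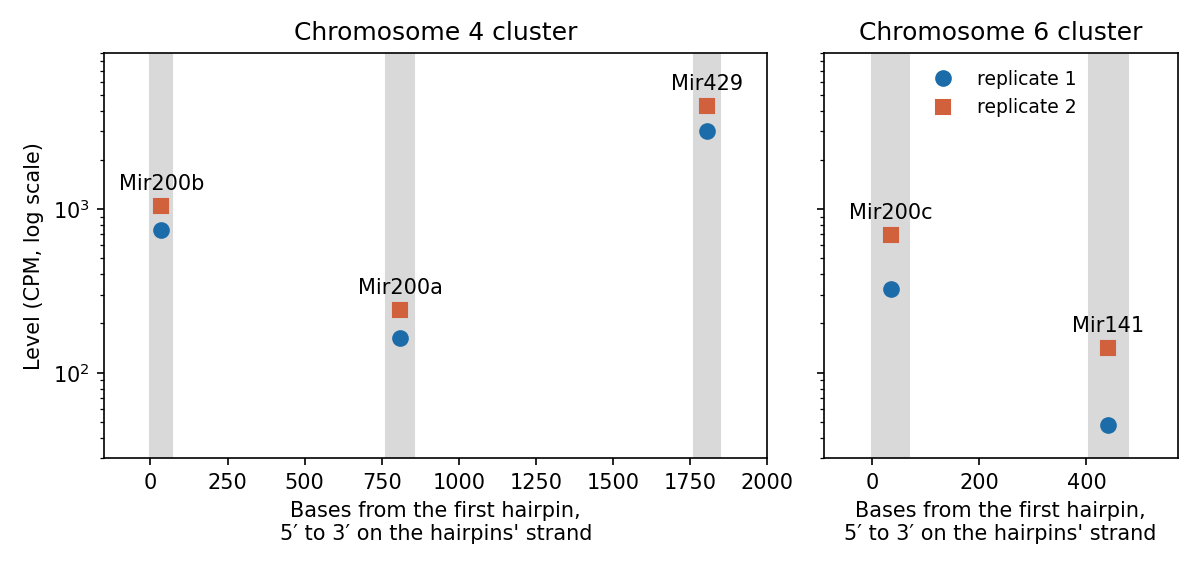
Position of each hairpin (grey band) in bases from the first hairpin of its cluster, read 5′ to 3′ on the hairpins' strand, against its level in CPM on a log axis, with replicate 1 as circles and replicate 2 as squares. On chromosome 4 the middle hairpin, Mir200a, is the lowest in both libraries, and on chromosome 6 the gap between the libraries is wider for Mir141 than for Mir200c.

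Grouped by the seed of the 3′ arm, nearly all of the family's counts came from genes of the AAUACUG group. Mir429, Mir200b and Mir200c together had 4055 and 5993 CPM in the 2 libraries, and held 95.05% (94.77% to 95.31%) and 93.99% (93.72% to 94.24%) of the family's counts. Mir200a and Mir141, which carry AACACUG, together had 211 and 383 CPM. These sums count both arms of each hairpin and so are an upper limit for the arms that carry these seeds. The shares are of genes, and shares of the arms could lie higher or lower. In the lower group the clusters contributed more evenly. Mir141 gave 22.83% of that group's counts in replicate 1 (20.53% to 25.25%) and 37.07% in replicate 2 (34.92% to 39.25%), whereas Mir200c gave 7.993% and 11.55% of the larger group.

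Each of the pairs with near-identical 3′ arms had its chromosome 4 gene above its chromosome 6 gene. Mir200b exceeded Mir200c by 2.29-fold in replicate 1 (2.17 to 2.41) and 1.51-fold in replicate 2 (1.44 to 1.57). Mir200a exceeded Mir141 by 3.38-fold (2.96 to 3.87) and 1.70-fold (1.55 to 1.86). In both pairs the gap was narrower in replicate 2, with intervals that did not overlap.

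Between the libraries, all 5 members were higher in replicate 2. The chromosome 6 genes differed most, with a fold of 2.95 for Mir141 (counting interval 2.57 to 3.39) and 2.14 for Mir200c (2.02 to 2.26). The chromosome 4 genes lay close together, at 1.48 for Mir200a (1.36 to 1.61), 1.42 for Mir429 (1.40 to 1.45) and 1.41 for Mir200b (1.35 to 1.46). Summed by cluster, the fold was 2.24 on chromosome 6 (2.13 to 2.36) and 1.42 on chromosome 4 (1.40 to 1.45). The intervals of the cluster sums did not overlap, but with 2 libraries no test over samples could be made of that difference.

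Set against all genes, these ratios lay towards the upper end. The two-sided exact binomial test was adjusted with Benjamini-Hochberg over the 440 genes with 10 or more counts. It called 5 of 5 members, which lie in 2 clusters, higher in replicate 2. Beside this, 17.5% of all genes tested were called higher and 27.0% lower. That background includes genes with far fewer counts than the members. Of the 183 genes that averaged at least 100 CPM, a level Mir141 just missed, 52 were called higher and 93 lower. Of the calls over all 440 genes 39.3% were higher in replicate 2, and 50.3% when the libraries were scaled with TMM. That scaling left the members' calls in place. The adjusted p-values of this exact test ran from 3.45e-19 for Mir200a to 1.71e-267 for Mir429. It compares 2 libraries and counts only counting error, so at such depths small differences pass it. The median log2 ratio of replicate 2 to replicate 1 was 0.56 over the members and -0.08 over all tested genes. Of the 440 tested genes, 6 had a larger ratio than Mir141, 15 than Mir200c, 42 than Mir200a, 52 than Mir429 and 54 than Mir200b.

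When the spread between the libraries was included, no member passed. In edgeR's exact test with 1 dispersion estimated over all genes, 0 of 5 members and 0.682% of all genes tested were called higher in replicate 2. At an unadjusted p under 0.05 this test passed 2 of the 5 members, Mir141 and Mir200c, both of the chromosome 6 cluster. At the same limit it passed 23 of the 440 genes tested, in either direction. The smallest adjusted p from edgeR among the members was 0.0977 for Mir141, followed by 0.503 for Mir200c. That dispersion was estimated from the same pair of libraries, at a coefficient of variation of 0.229 between them, and so contains the differences it is set against.

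**Figure D4:**
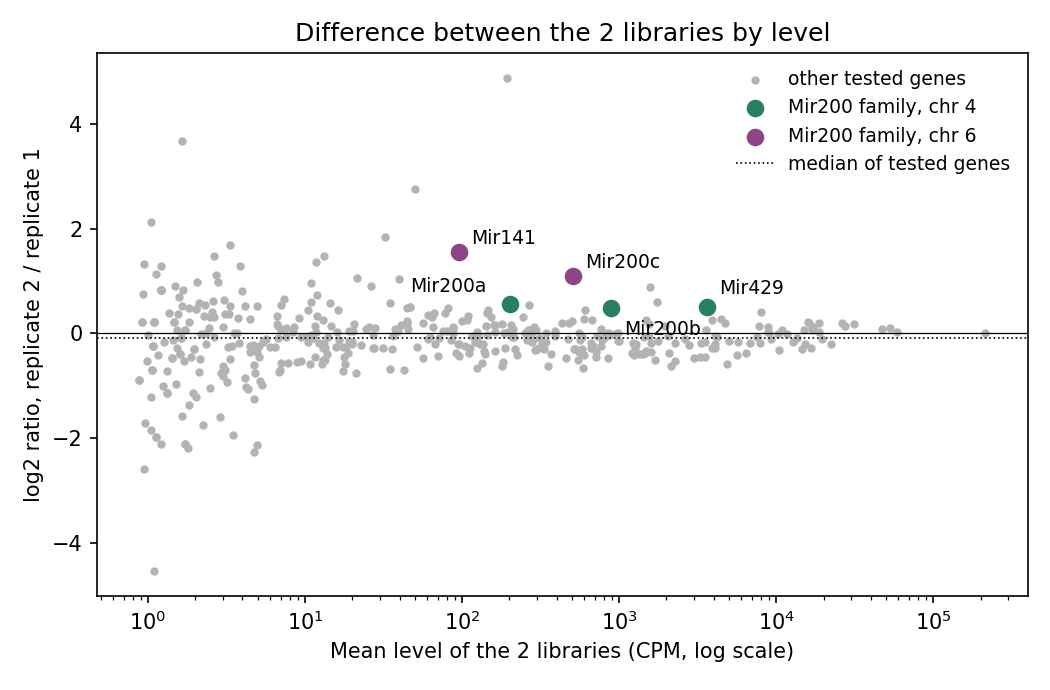
log2 ratio of replicate 2 to replicate 1 against mean level in CPM on a log axis, 1 point per tested gene, with the members coloured by cluster and the median of tested genes dotted. The chromosome 6 genes lie at 1.09 and 1.56 and the chromosome 4 genes between 0.49 and 0.56, all above the dotted median of -0.08.

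Few genes at these levels had a larger ratio. Of the 183 genes whose mean reached 100 CPM, the 8 with the largest ratios included 4 members: Mir200c was the 2nd, Mir200a the 5th, Mir429 the 7th and Mir200b the 8th (Mir141, with a mean of 95.2 CPM, was below this level). The others were Mir215, Mir206, Mir375 and Mir182. The 5 genes at this level whose log2 ratio lay nearest to the members' median of 0.56 over these 2 libraries were Mir182 (0.55), Mir375 (0.60), Mir301 (0.45), Mir181b-2 (0.44) and Mir144 (0.42). Mir182, of a cluster expressed in epithelia and sensory organs, had 216 and 317 CPM in the 2 libraries. Mir375, known from endocrine cells of pancreas and gut, had 1378 and 2086 CPM. A ratio over a single pair of libraries is a weak measure of likeness and is given as a description.

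Other miRNAs known from epithelia were present too. Of the 11 genes in that list, 9 had enough counts for the exact binomial test, which called 4 higher and 1 lower in replicate 2, beside 17.5% and 27.0% of all genes tested. The median log2 ratio of the 9 was 0.21, and edgeR's exact test called 0 of them higher, as it did for the miR-200 family. Mir203, an epidermal miRNA, was at 458 and 542 CPM (log2 ratio 0.24), and Mir31 at 493 and 457 CPM (-0.11). Mir183 and Mir96, which share a cluster with Mir182, had log2 ratios of 0.32 and 0.33. Mir205, which together with the miR-200 family represses Zeb1 and Zeb2, was at 41.3 and 47.8 CPM and did not pass (exact binomial test, adjusted p = 0.196). The list summed to 1715 CPM and 1948 CPM in the 2 libraries, a fold of 1.14 beside 1.49 for the miR-200 family.

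Some markers of tissues other than liver differed between the libraries as well. The exact binomial test called 4 of 4 genes of the intestine list higher in replicate 2, beside 17.5% of all genes tested, and their summed level was 5063 and 6339 CPM. This list was chosen with earlier results of these data known, so its count of calls is a description only. The largest difference in that list was in Mir215, at 12.6 CPM in replicate 1 and 376 CPM in replicate 2, and its neighbour Mir194-1 was at 14.0 and 50.8 CPM. These 2 were among the 3 genes that edgeR's exact test called higher (adjusted p = 1.26e-15 and 0.0252); the third was Mir802, at 12.8 and 88.0 CPM. Mir192 and Mir194-2 had log2 ratios of 0.25 and 0.18, and both of them and Mir194-1 are in the hepatocyte list too. Reads that Mir194-1 and Mir194-2 share may be among the multimapping reads and so be missing from both counts. In the pancreas list, 1 of 4 genes was called higher, 1 lower and 2 in neither direction by the binomial test, and 0 higher by edgeR. Of all genes tested, the binomial test called 17.5% higher and 27.0% lower. The summed level of the pancreas list, 1395 and 2105 CPM, was nearly all Mir375. The acinar genes Mir217 and Mir216b were at 8.60 and 13.1 CPM and at 7.08 and 3.53 CPM.

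In the muscle list, 2 of 5 tested genes were called higher by the binomial test, Mir206 at 1104 and 2050 CPM and Mir208b at 36.9 and 51.7 CPM, and 0 by edgeR. Of all genes tested, the binomial test called 17.5% higher and edgeR 0.682%. Mir499, more abundant than Mir208b, was at 145 and 143 CPM and did not pass (exact binomial test, adjusted p = 0.922). The summed level of the list was 1302 and 2260 CPM. Mir133b, which shares a transcript with Mir206, was at 14.8 and 12.2 CPM, and Mir133a-1 and Mir133a-2 had 0 counts in both libraries. Reads of miRNAs with identical genomic copies, such as miR-1 and miR-133a, may be among the multimapping reads. The part of these other tissues in the difference of the miR-200 family between the libraries was not tested.

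Lists for the main cell types of fetal liver had summed levels with folds closer to 1, at 1.01 for the hepatocyte list, nearly all of it Mir122, 1.04 for the leukocyte list, 1.07 for Mir126a, and 1.13 for both the erythroid and the mesenchymal list. The exact binomial test called 4 of 5 hepatocyte genes higher, 1 of 5 leukocyte genes higher, and Mir126a higher. It called 2 erythroid genes higher and 1 lower of 3, and 3 mesenchymal genes higher and 1 lower of 5. Of all genes tested it called 17.5% higher and 27.0% lower. Among the hepatocyte calls was Mir122, at a log2 ratio of 0.01. The others were Mir192, Mir194-2 and Mir194-1, which are also in the intestine list. Single genes of these lists had folds as far from 1 as members of the miR-200 family, among them Mir194-1 (3.63), Mir199a-2 (1.95) and Mir486 (0.632). Mir199a-2 had only 44 and 74 counts. Of the more abundant mesenchymal genes, Mir143 (1.15) and Mir145a (1.11) were higher in replicate 2, and Mir214 (0.738) and Mir199b (0.873) lower. Mir143, at 15059 and 17326 CPM, made up most of the mesenchymal sum. Median log2 ratios were 0.18 for the hepatocyte list, 0.07 for the leukocyte list, 0.09 for the erythroid list and 0.16 for the mesenchymal list, beside 0.56 for the miR-200 family.

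**Figure D5:**
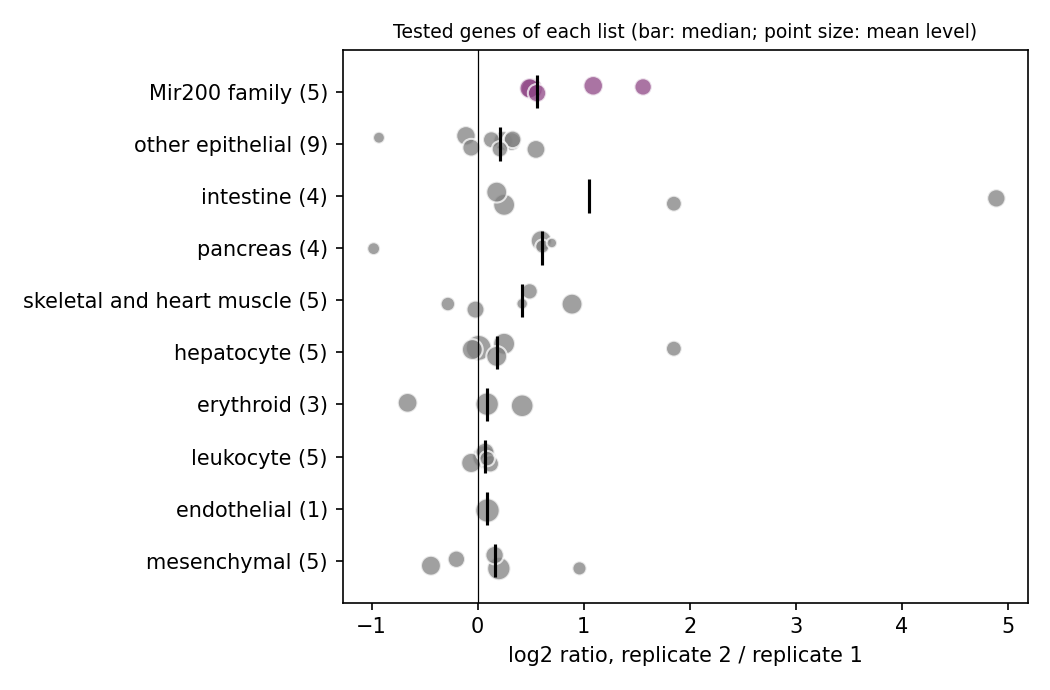
log2 ratio of replicate 2 to replicate 1 for the tested genes of each list, 1 point per gene with a size that grows with its mean level, the median as a bar and the number of tested genes in brackets; the hepatocyte and intestine lists share 3 genes. All 5 points of the miR-200 family lie above 0, and the farthest point, at 4.89, is Mir215 of the intestine list.

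By mean level, Mir429 stood between Mir192 (3917 ± 483 CPM, n = 2) and Mir16-1 (3567 ± 114 CPM), and Mir200b between Mirlet7b (974 ± 1.65 CPM) and Mir181c (890 ± 5.13 CPM). Mir200c stood between Mir329 (518 ± 75.5 CPM) and Mir203 (500 ± 59.4 CPM). Mir200a stood between Mir145a (204 ± 15.6 CPM) and Mirlet7a-1 (196 ± 1.44 CPM), and Mir141 between Mir666 (96.3 ± 20.3 CPM) and Mir199b (95.1 ± 9.14 CPM). In each case the member's own 2 values spanned the means of both neighbours, so these positions could not be told apart. Reads of miRNAs with several genomic copies may be among the multimapping reads, which the gene counts leave out. The levels of neighbours such as Mirlet7a-1 and Mir16-1 may therefore be too low. The SD of each member exceeded that of both its neighbours.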

How the data were processed

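Total RNA of 2 liver pools was sequenced as small RNA (size range under 30, per the labels). The authors deposited raw counts per miRNA gene, 1 table a library, on mm10 with GENCODE M4 per the text description beside them. How reads were aligned and counted, and whether molecular identifiers were used, is not given in the sources used here. Of 14129766 and 12186088 reads tallied, 42.0% and 41.9% were sense-strand counts in genes (the stranded column with the larger total). The 4 tally rows were left out. Names and positions came from GENCODE M21, which matched 1894 of 1973 rows.

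CPM, shares with Clopper-Pearson intervals and an exact conditional binomial test across all genes (10 or more counts, Benjamini-Hochberg, threshold 0.05) were computed with Python 3.11.15 and scipy 1.17.1. Log2 ratios of single genes had 0.5 added to each count; folds had none. Means and SDs are over 2 libraries. Alternatives used edgeR 4.0.16 and DESeq2 1.42.0 scaling in R 4.3.3, other columns, totals, filters and pseudocounts, and edgeR's exact test. The statistics were run on simulated counts that held counting error only, so this check does not cover spread between libraries.

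The members and gene lists were chosen with earlier results of these data known. Named genes were the members, up to 3 leading genes of each list, the 5 nearest in ratio and the neighbours in level; further genes were chosen after their values were seen. The lists hold 1 muscle and 1 leukocyte gene without a row.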

Additional observations from a re-analysis of the deposited data

How the results depend on the processing

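All 5 members stayed higher in replicate 2, and past the exact binomial test, with TMM or DESeq2 scaling, unstranded counts, a total without Mir122, each other count filter and 1 added to each count. EdgeR's exact test with a dispersion over all genes called 0 of them (log2 ratios 0.59 for Mir429, 0.57 for Mir200b, 1.18 for Mir200c, 0.65 for Mir200a and 1.64 for Mir141) and 3 genes in all, against 196 with the binomial test. With TMM scaling 50.3% of called genes were higher in replicate 2, against 39.3% without it, and ratios rose by 0.08. Over all tallied reads the family's share was 0.223%, against 0.532%. Without Mir429 the chromosome 6 share was 34.3%, against 10.9%, and that of the AAUACUG seed group 82.7%, against 94.5%. By construction the first of these settings changes the denominator, and leaving out Mir429 removes it from the denominator and, for the seed, also from the numerator.

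Leaving out each replicate in turn returns the value of the other library and is no separate check. The values were 0.427% to 0.638% for the family's share, 8.73% to 13.1% for the chromosome 6 share and 93.99% to 95.05% for the AAUACUG seed group. No paired analysis was possible because there is 1 group. No member was limited by depth, and the spread between 2 libraries limits every level given here.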
